A study of Mus musculus with 10 samples.

Results

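The genes described here are the nuclear-encoded subunits of the oxidative phosphorylation complexes, measured as mRNA in endothelial cells sorted from mouse brain. They were found by symbol: the Nduf genes of complex I, Sdha to Sdhd, the Uqcr genes and Cyc1, the Cox4 to Cox8 genes, and the Atp5 genes. Of 91 matching symbols, Ndufa4l2 and the pseudogenes Ndufs5-ps and Cox7c-ps1 were left out by name. Of the remaining 88, the 82 with at least 1 TPM (a length-corrected transcript level, scaled to an equal total in each library) in at least 5 of 10 libraries were kept, of 26264 genes in the table and 12751 past the same filter. Members were thus chosen by their names and selected on their TPM over all libraries without regard to diet, so the levels below are a description. Complex I had 38 members, complex II 4, complex III 9, complex IV 14 and complex V 17.

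The series asked how loss of microglia affects brain vessels. C57BL6 mice ate a control diet or one with PLX5622 at 1200 ppm for 1 month. PLX5622 inhibits CSF1R, the receptor that microglia need to survive. Endothelial cells positive for CD31 were sorted from brain after removal of the meninges, olfactory bulbs and cerebellum, and each diet had 3 libraries from males and 2 from females, with no age given in the labels.

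Oxidative phosphorylation takes place in the inner mitochondrial membrane. Complexes I and II pass electrons from NADH and succinate to ubiquinone, complex III passes them on to cytochrome c, and complex IV passes them to oxygen. Complexes I, III and IV pump protons, and complex V, the ATP synthase, makes ATP from the returning flow. Most subunits are encoded in the nucleus and imported, and the factors NRF1, GABPA and YY1 are known to bind promoters of many of these genes. Brain endothelial cells are usually described as rich in mitochondria compared with other endothelia, while endothelial cells in general draw much ATP from glycolysis. The 13 subunits encoded by mitochondrial DNA were not analysed here.

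The promoters of 4 members are shown to make the letter strings visible. Sdha, Cox6a1 and Atp5h were picked by abundance among members of complexes II, IV and V whose promoter held an NRF1-type match. Promoters on a chromosome that was set aside were not considered in this choice. Cox7a1 was picked as a low isoform, so no contrast can be read from the 4. The RefSeq table of mouse build GRCm38.p6 held promoters of 68 of the 82 members, 73 promoters in all, each from 250 bases before to 50 bases after a start site. Capitals mark matches, on either strand, to GCGC and GCGC separated by any 2 bases (NRF1-type), CCGGAAG (the ETS type bound by GABPA) or AAGATGGC (YY1-type).
Sdha promoter: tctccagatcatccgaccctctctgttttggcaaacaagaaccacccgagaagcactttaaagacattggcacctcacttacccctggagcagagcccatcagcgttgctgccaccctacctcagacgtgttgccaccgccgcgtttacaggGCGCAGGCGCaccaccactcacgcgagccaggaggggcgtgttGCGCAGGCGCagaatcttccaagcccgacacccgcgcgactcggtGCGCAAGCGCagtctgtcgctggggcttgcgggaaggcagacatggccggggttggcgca
Cox6a1 promoter: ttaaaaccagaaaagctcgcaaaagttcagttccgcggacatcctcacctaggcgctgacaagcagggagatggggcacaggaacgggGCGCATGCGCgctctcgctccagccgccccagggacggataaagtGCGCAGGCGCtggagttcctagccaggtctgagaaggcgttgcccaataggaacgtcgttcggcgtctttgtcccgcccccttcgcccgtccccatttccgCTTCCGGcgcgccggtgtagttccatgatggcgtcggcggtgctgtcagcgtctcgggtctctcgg
Atp5h promoter: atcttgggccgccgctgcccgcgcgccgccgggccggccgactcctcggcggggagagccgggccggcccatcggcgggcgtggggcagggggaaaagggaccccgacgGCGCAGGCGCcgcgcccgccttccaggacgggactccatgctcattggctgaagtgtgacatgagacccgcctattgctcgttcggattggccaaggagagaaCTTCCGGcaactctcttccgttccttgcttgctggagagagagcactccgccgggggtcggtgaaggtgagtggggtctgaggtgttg
Cox7a1 promoter: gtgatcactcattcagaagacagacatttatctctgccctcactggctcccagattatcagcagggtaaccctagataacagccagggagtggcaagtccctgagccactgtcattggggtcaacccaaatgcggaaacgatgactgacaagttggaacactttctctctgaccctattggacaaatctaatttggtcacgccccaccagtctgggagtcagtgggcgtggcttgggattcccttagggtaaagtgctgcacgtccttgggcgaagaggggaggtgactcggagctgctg
The Sdha promoter (chr13:74350191-74350490, minus strand) held 3 NRF1-type matches, beginning at -98, -55 and -10 from the start site. Cox6a1 (chr5:115348909-115349208, minus strand), the most abundant complex IV member, held 2 NRF1-type matches and 1 of the ETS type. Atp5h (chr11:115419870-115420169, minus strand), a peripheral stalk subunit of complex V, held 1 of each. Cox7a1 (chr7:30183921-30184220, plus strand), a muscle isoform of complex IV that was low here, held none of the 3 letter strings.

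NRF1-type strings were found in 20 of the 73 member promoters, 27.4%, against 12.9% of the 12702 promoters of all genes past the filter and 6.23% of all 32851 promoters in the table. The ETS type was found in 17, 23.3%, against 17.3% and 8.86%. The YY1 type was found in 10, 13.7%, against 4.43% and 2.75%. At least 1 of these 3 was present in 41 member promoters, 56.2%, against 30.5% and 16.0%, so many members lacked all 3, as Cox7a1 did. GGGCGG, the SP1 type, was in 29, or 39.7%, which lay below the 62.3% of genes past the filter. CCAAT was in 30, 41.1% against 37.4%, and the ERR-type string TCAAGGTCA in 2, 2.74% against 0.276%. By complex, the NRF1 type was in 10 of 36 promoters of complex I, 2 of 3 of complex II, 1 of 5 of complex III, 1 of 11 of complex IV and 6 of 18 of complex V. A string match describes the letters in the window and was not tied to binding in these cells.

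The members were abundant genes. Their median level was 124.5 TPM, against 23.2 TPM for all genes past the filter, and 79 of 82 averaged at least 20 TPM. Together they made up 1.18% to 1.42% of all TPM in a library. Complex I supplied 30.1% of that sum, complex II 3.78%, complex III 12.4%, complex IV 22.9% and complex V 30.9%. Many of these genes have near-identical processed pseudogenes, and the sources used here do not give how shared reads were counted, so small differences between single members are uncertain.

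**Figure D1:**
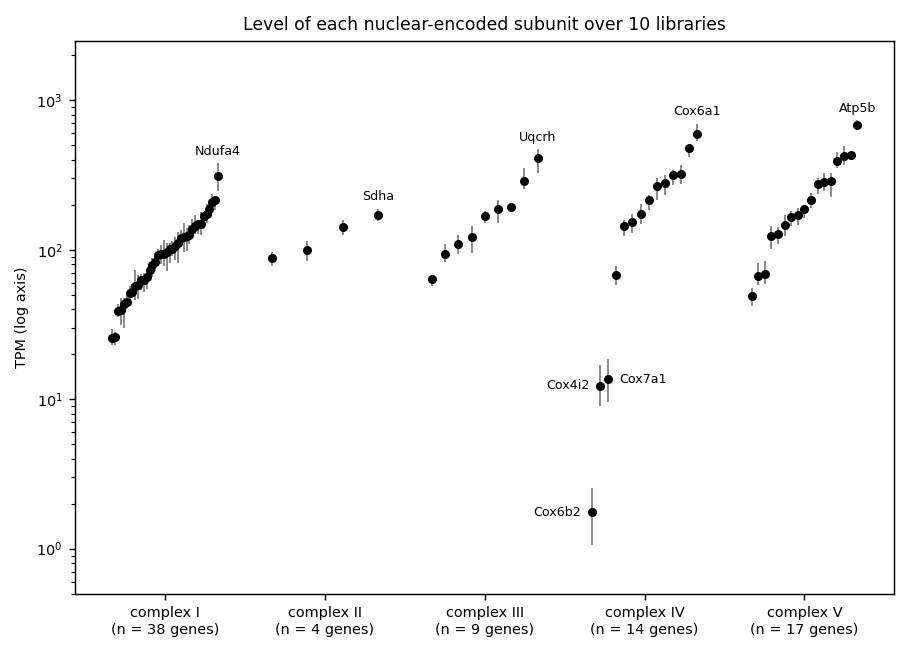
Level of each of the 82 subunits by complex, in TPM on a log axis. Points are means over 10 libraries and bars run from the lowest to the highest library, with the most abundant member of each complex and the 3 lowest members of complex IV named. All but Cox6b2, Cox4i2 and Cox7a1 averaged above 20 TPM, and Atp5b was highest at 683.9 TPM.

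In complex I, the 7 core subunits, which carry the flavin and iron-sulfur clusters of the electron path, had a median of 101.5 TPM, and Ndufs1 was the lowest of them at 52.2 TPM. The 31 accessory subunits had a median of 93.7 TPM, from 25.5 TPM for Ndufab1, the mitochondrial acyl carrier protein, to 310.4 TPM for Ndufa4. Ndufa4 is listed with complex I by its name, although its protein has since been assigned to complex IV. The second of the complex by level was Ndufb11, an accessory membrane subunit, at 214.4 TPM.

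Complex II kept its order in all 10 libraries. Sdha, the flavoprotein that oxidises succinate, was highest with 171.7 TPM, followed by the iron-sulfur subunit Sdhb with 141.7 TPM. The membrane anchors Sdhc and Sdhd followed with 99.5 and 87.6 TPM. In complex III, the small subunits Uqcrh and Uqcrb led with 409.2 and 290.2 TPM. The 4 catalytic and core subunits lay between 94.3 TPM for the Rieske iron-sulfur protein Uqcrfs1 and 192.9 TPM for the core protein Uqcrc1, with cytochrome c1 (Cyc1) at 109.3 TPM.

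In complex V, the catalytic subunit Atp5b averaged 683.9 TPM and its partner Atp5a1 427.6 TPM. These proteins are present in several copies per complex. The central stalk subunits Atp5c1, Atp5d and Atp5e, present as single copies, averaged 165.5, 186.3 and 286.2 TPM. The peripheral stalk subunits ranged from 169.9 TPM (Atp5pb) to 425.9 TPM (Atp5h), and the membrane accessory subunits from 67.0 TPM (Atp5mpl) to 273.8 TPM (Atp5j2). The genes Atp5g1, Atp5g2 and Atp5g3 encode the same mature rotor ring protein with different import sequences. Of their summed TPM, Atp5g3 gave 67.0% to 73.4% across libraries, Atp5g1 14.2% to 20.5% and Atp5g2 11.5% to 13.0%. The ranges of the diets overlapped for all 3 shares, with Atp5g3 at 71.4% ± 1.88 (SD, n = 5) on control diet and 70.0% ± 2.17 (SD, n = 5) on PLX5622.

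Complex IV held the widest spread of levels, because some of its subunits exist as isoform pairs. In each pair the isoform found in most tissues dominated. Cox4i2, an isoform of Cox4i1 known from lung and from low oxygen, measured 13.2, 11.5 and 11.9 TPM in control males 1 to 3 and 11.5 and 13.7 TPM in control females 1 and 2. On PLX5622 it measured 9.96, 8.96 and 14.4 TPM in males 1 to 3 and 10.9 and 17.0 TPM in females 1 and 2. The PLX5622 libraries thus held both the lowest and the highest values, and the groups overlapped. Cox4i2 made up 1.93% to 3.65% of the summed TPM of the pair, with 2.57% ± 0.399 (SD, n = 5) on control diet and 2.49% ± 0.724 (SD, n = 5) on PLX5622. Cox4i1 itself ranged from 417.9 to 509.7 TPM.

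Cox7a1, the heart and skeletal muscle counterpart of Cox7a2, lay between 12.3 and 13.7 TPM in 4 control libraries and at 18.7 TPM in the library labelled control female 1. In the PLX5622 libraries it lay between 9.59 TPM (male 1) and 15.6 TPM (female 2), and the diets overlapped. Without the library labelled control female 1, PLX5622 male 1 lay below the controls and PLX5622 female 2 above them. Its share of the pair was 6.22% to 10.7%, with 8.85% ± 1.18 (SD, n = 5) on control diet and 8.41% ± 1.59 (SD, n = 5) on PLX5622, and the control share was 8.42% ± 0.771 (SD, n = 4) without that library. Cox6b2, known as the testis counterpart of Cox6b1, was the lowest member with 1.75 TPM and 0.285% to 0.840% of its pair. It rested on as few as 7 reads in a library, whereas 79 of the 82 members had at least 100 reads in every library.

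The lowest 3 members inside the threshold were Cox6b2, Cox4i2 and Cox7a1. Just outside it, Cox8b, the muscle counterpart of Cox8a, averaged 0.995 TPM and reached 1 TPM in 4 libraries. Ndufa11b averaged 0.671 TPM (at least 1 TPM in 4 libraries) and Ndufb4c 0.324 TPM (in 1 library). Cox6a2, the muscle counterpart of Cox6a1, was listed at 0 in all 10 libraries, as were Cox7b2 and Cox8c. Cox4i2 and Ndufa4l2, a relative of Ndufa4 that averaged 14.2 TPM, are known from pericytes, the contractile cells on capillaries. The 10 pericyte markers, a list that includes Ndufa4l2 itself, were all present. Their summed level was 346.9 to 510.7 TPM on control diet and 389.1 to 542.1 TPM on PLX5622. The 6 smooth muscle markers summed to 159.7 to 250.3 and 138.4 to 196.5 TPM. The part of these cells in the isoform levels was not tested.

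**Figure D2:**
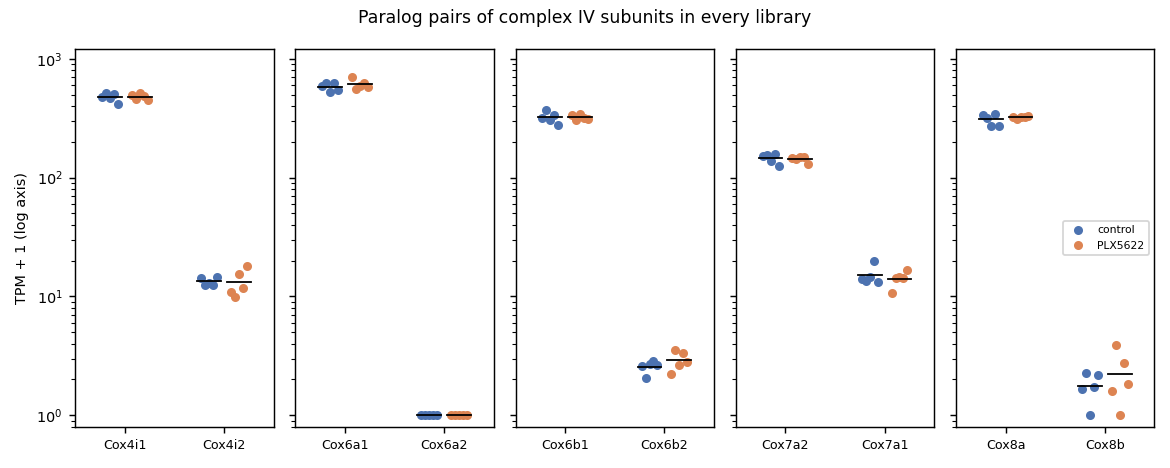
Paralog pairs of complex IV subunits, as TPM + 1 on a log axis, with a point for each of 5 control and 5 PLX5622 libraries and a line at the mean. In each of the 5 pairs the left gene lies far above the right one in every library. Cox6a2 is listed at 0, and the diets overlap in every pair where both genes were detected.

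Some features of the libraries bear on the comparison of diets. Depth was 26.4M to 61.5M recovered reads (M, mega), with a median of 31.2M. The 10 endothelial markers were all present and summed to 23120 to 24470 TPM on control diet and 22740 to 24430 TPM on PLX5622, while the 8 neuronal markers summed to 38.0 to 61.4 and 44.3 to 63.1 TPM. Csf1r, which marks microglia, measured 6.78 to 20.2 TPM in 4 control libraries and 0 to 0.461 TPM in the PLX5622 libraries. The library labelled control female 1 had 0.0689 TPM, within the PLX5622 range, and a sum over 10 microglial markers of 52.8 TPM, against 103.9 to 178.5 TPM in the other controls and 39.4 to 46.0 TPM on PLX5622. It goes against its label in this respect. Values without it stand beside several results below, while the interval counts and coefficients of variation include it.

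The diet comparison asked whether any subunit differed between mice with and without most of their microglia. None of the 82 members was called. In limma on log2(TPM + 1) with sex as a covariate and adjustment over all 12751 genes, 0 members passed an adjusted p of 0.05, against 17 of all genes, 0.133%. A single member, Ndufs1, had an unadjusted p under 0.05, where 8.31% of all genes did. For 0 members did the libraries of the diets separate without overlap, against 1.8% of all genes. Without the library labelled control female 1 this held for 1 member, Ndufs1, against 2.82% of all genes. The members' log2 differences, PLX5622 minus control, ran from -0.14 (Ndufs1) to 0.17 (Cox6b2) with a median of -0.0008, beside -0.016 for all genes. Of the 82, 39 lay above 0 and 43 below, and the median became 0.012 with quantile normalization and 0.018 with median-of-ratios scaling.

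The intervals set bounds on what could have been missed. With all 10 libraries, the 95% confidence interval of all 82 members lay within a 1.5-fold difference in TPM + 1, in either direction. The same held for 88.0% of all genes. For 75 members, 91.5%, the interval lay within 1.25-fold, against 56.1% of all genes. The members were more abundant, with a median of 124.5 TPM against 23.2 TPM. The share was 95.1% of 82 cytosolic and 76.9% of 78 mitochondrial ribosomal protein genes. The 7 members with wider intervals included Cox6b2, whose interval of -0.18 to 0.53 was the widest. On this scale the fold change of so low a gene is understated. In the table that the authors deposited, the log2 fold change of Cox6b2 was 0.33 ± 0.48 (SE). Without the library labelled control female 1, its limma value was 0.19 ± 0.19 (SE), and its interval then passed 1.5-fold. The intervals of Ndufa2 and Atp5e passed 1.25-fold without that library, while those of Ndufa4 and Atp5mpl came within it. The counts of intervals above were not made without that library. Replicate scatter was close to that of other genes on control diet, with a median coefficient of variation of 9.99% for the members and 10.8% for all genes, and was 7.16% against 11.1% on PLX5622. The table that the authors deposited listed all 82 members, with 0 of them at an adjusted p under 0.05, where 0.596% of its 19474 genes were. In the authors' deposited table, none (0) of the members had an unadjusted p under 0.05 (6.33% of its genes), and their log2 fold changes ran from -0.12 to 0.33.

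**Figure D3:**
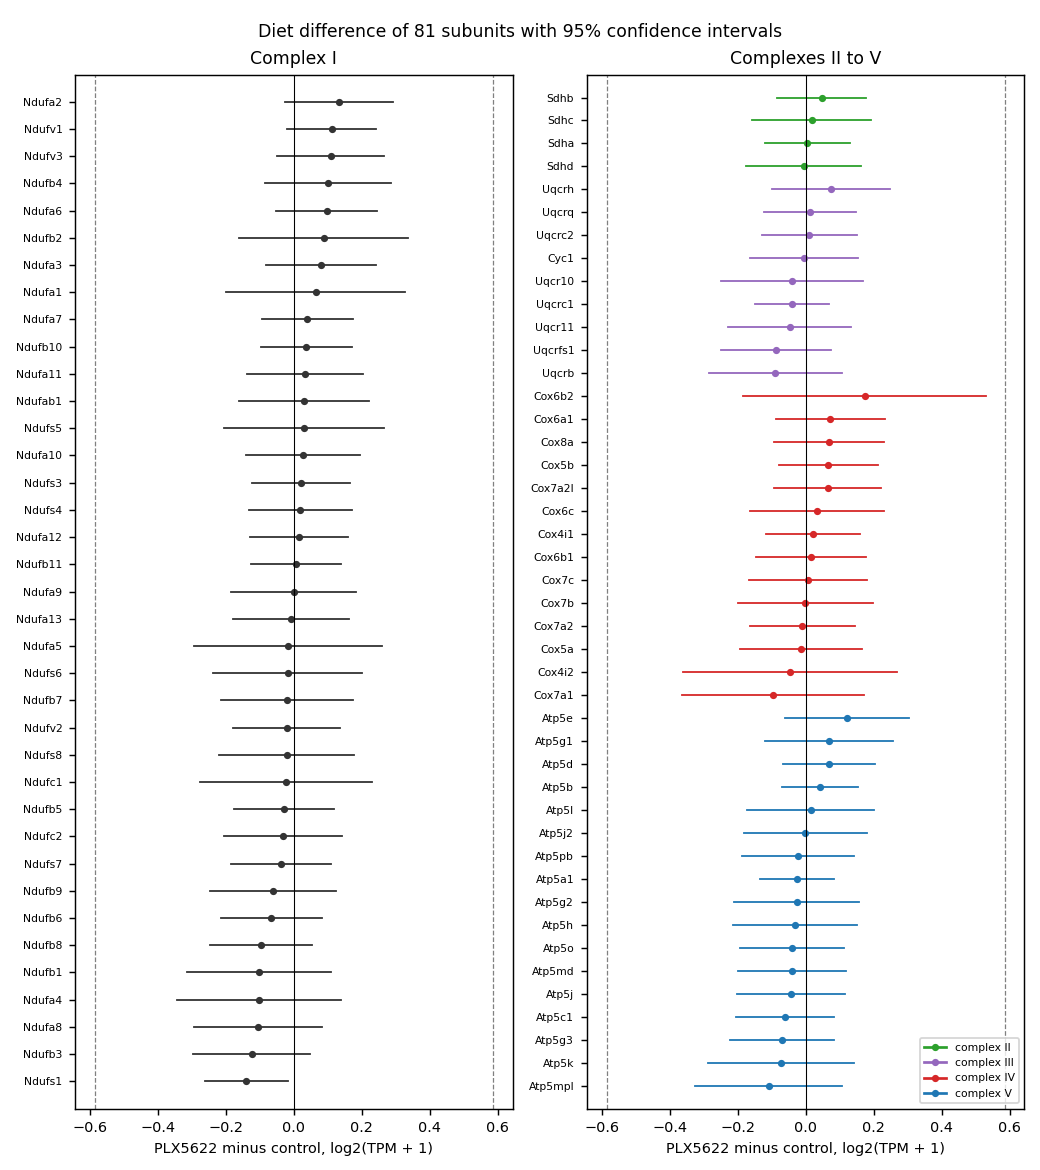
Difference between PLX5622 and control diet for 81 of the 82 subunits, in log2(TPM + 1), with its 95% confidence interval from limma (5 libraries per diet). The solid line marks no difference and the dashed lines 1.5-fold in either direction. Every interval shown lies inside the dashed lines, and Ndufs1 is the one whose interval does not reach 0.

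By complex, the median log2 differences were 0.0029 for complex I, 0.012 for complex II, -0.04 for complex III, 0.019 for complex IV and -0.027 for complex V. For scale, the median standard error of a single member was 0.076. No error was computed for the medians of the complexes. Within complex V, the catalytic head and central stalk had a median of 0.042 and the peripheral stalk -0.035.

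Ndufs1, the largest core subunit of complex I, measured 59.4, 55.7 and 53.3 TPM in control males and 51.7 and 53.9 TPM in control females. On PLX5622 it measured 47.8, 48.6 and 52.6 TPM in males and 49.2 and 49.8 TPM in females. The lowest control value, in the library labelled control female 1, was below the highest PLX5622 value, in male 3, so the diets overlapped in that pair. Without that library the controls measured 53.3 to 59.4 TPM and PLX5622 47.8 to 52.6 TPM, with no overlap. The log2 difference was -0.14 ± 0.056 (SE), with an interval of -0.26 to -0.02 and a limma adjusted p of 0.521. Without the library labelled control female 1 it was -0.16 ± 0.06 (SE, limma adjusted p = 0.517), and leaving out single libraries moved it between -0.16 and -0.11.

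Ndufv1, the flavin-binding core subunit that accepts electrons from NADH, lay on the other side. It measured 132.7, 144.9 and 133.5 TPM in control males and 129.1 and 122.1 TPM in control females, against 160.5, 132.2 and 152.3 TPM in PLX5622 males and 135.8 and 136.2 TPM in PLX5622 females. The diets overlapped, and the log2 difference was 0.11 ± 0.06 (SE, limma adjusted p = 0.691). Ndufa2, an accessory subunit, had the highest value in the complex at 0.13 ± 0.073 (SE, limma adjusted p = 0.697), with 141.9 ± 11.5 TPM (SD, n = 5) on control diet and 155.7 ± 13.5 TPM (SD, n = 5) on PLX5622. Without the library labelled control female 1, the Ndufa2 value was 0.18 ± 0.0685 (SE). So 3 subunits of the same complex differed in the sign of small values that did not pass.

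The complex II subunits lay closest together. Sdha measured 169.3, 187.5 and 156.3 TPM in control males and 171.9 and 172.1 TPM in control females, then 177.6, 178.5 and 168.4 TPM in PLX5622 males and 172.1 and 162.9 TPM in PLX5622 females. The PLX5622 values all fell inside the control span. Sdhb had a log2 difference of 0.048 ± 0.06 (SE), Sdhc of 0.018 ± 0.08 and Sdhd of -0.006 ± 0.078. None of these differences exceeded its standard error.

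In complex III, Uqcrb had the most negative value, at -0.089 ± 0.09 (SE, limma adjusted p = 0.876). It measured 310.2, 325.6 and 276.8 TPM in control males and 306.4 and 272.9 TPM in control females. On PLX5622, male 3 stood at 353.7 TPM and the other 4 libraries between 254.3 and 281.9 TPM. The highest library of all was therefore a PLX5622 one, although the other 4 PLX5622 values lay in the lower part of the control span or beneath it. Uqcrh had a value of 0.076 ± 0.079 (SE) and Uqcrfs1 of -0.087 ± 0.074 (SE).

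In complex IV, the most abundant subunits had positive values smaller than or close to their errors. Cox6a1 measured 580.4 ± 43.1 TPM (SD, n = 5) on control diet and 611.2 ± 54.7 TPM (SD, n = 5) on PLX5622, a log2 difference of 0.073 ± 0.074 (SE). Cox5b, at 0.067 ± 0.066 (SE), and Cox8a, at 0.068 ± 0.074 (SE), were alike in size. In complex V, Atp5b measured 673.9 ± 23.4 TPM (SD, n = 5) and 694.0 ± 30.0 TPM (SD, n = 5), a log2 difference of 0.042 ± 0.051 (SE). Atp5e, the smallest subunit of the central stalk, had the highest value of the complex at 0.12 ± 0.084 (SE, limma adjusted p = 0.775). Without the library labelled control female 1, the Atp5e value was 0.19 ± 0.075 (SE). Atp5mpl, a small membrane proteolipid, had the lowest at -0.11 ± 0.1 (SE, limma adjusted p = 0.858).

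**Figure D4:**
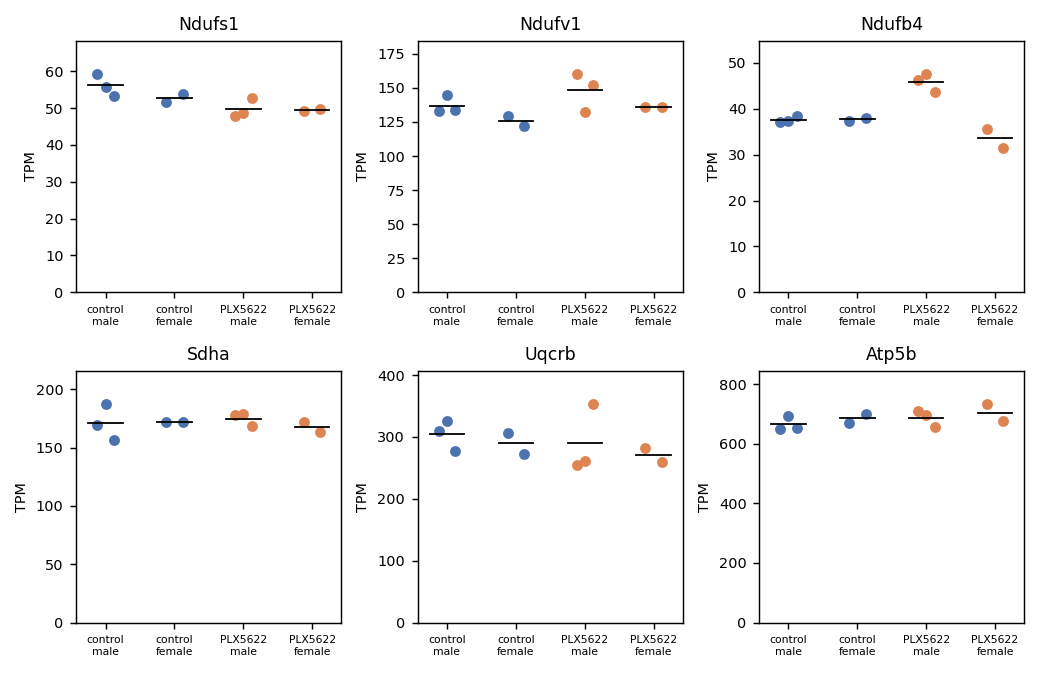
TPM of 6 members in each library, by diet and sex, with a line at the group mean and the axis starting at 0. Ndufs1, Ndufv1, Sdha, Uqcrb and Atp5b overlap between diets. Ndufb4 separates PLX5622 males (43.6 to 47.7 TPM) from PLX5622 females (31.5 and 35.6 TPM), while the controls lie between 37.2 and 38.5 TPM.

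The members differed more between libraries than between diets, and they did so together. With each gene's log2(TPM + 1) taken relative to its own average and averaged over members, the control libraries stood at 0.036, 0.096 and -0.095 in males 1 to 3, at 0.11 in the library labelled control female 1 and at -0.15 in control female 2. The PLX5622 libraries stood at 0.02, -0.028 and 0.08 in males and at 0.026 and -0.097 in females. The PLX5622 values thus lay inside the control span, whose ends were both set by control females. In bulk samples such as these, fewer cells of a type and less RNA per cell cannot be told apart.

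Control female 2 was the lowest of the 10 libraries for 40 of the 82 members, 48.8%, where it was lowest for 6.70% of all genes past the filter. PLX5622 female 2 was lowest for 20 members, 24.4%, against 13.7%. The library labelled control female 1 was highest for 22 members, 26.8% against 10.3%, and control male 2 for 21, 25.6% against 8.55%. All 5 complexes had negative levels in control female 2, between -0.14 for complex III and -0.16 for complex V. An exception among abundant members was Atp5b, which measured 701.3 TPM in control female 2, above the other 4 controls.

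Genes of related machinery moved with the members in these libraries. The mean centred level of 78 mitochondrial ribosomal proteins was -0.11 in control female 2 and 0.11 in the library labelled control female 1, and that of 82 cytosolic ribosomal proteins was -0.23 and 0.027. The mitochondrial biogenesis regulators stood on the other side, at 0.074 and -0.1. The endothelial markers were at 0.065 in control female 2 and -0.05 in the library labelled control female 1, and the pericyte markers at 0.14 and -0.23. The microglial marker sum was 145.0 TPM in control female 2 and 52.8 TPM in the other. The part of cell composition or RNA quality in these shifts was not tested.

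**Figure D5:**
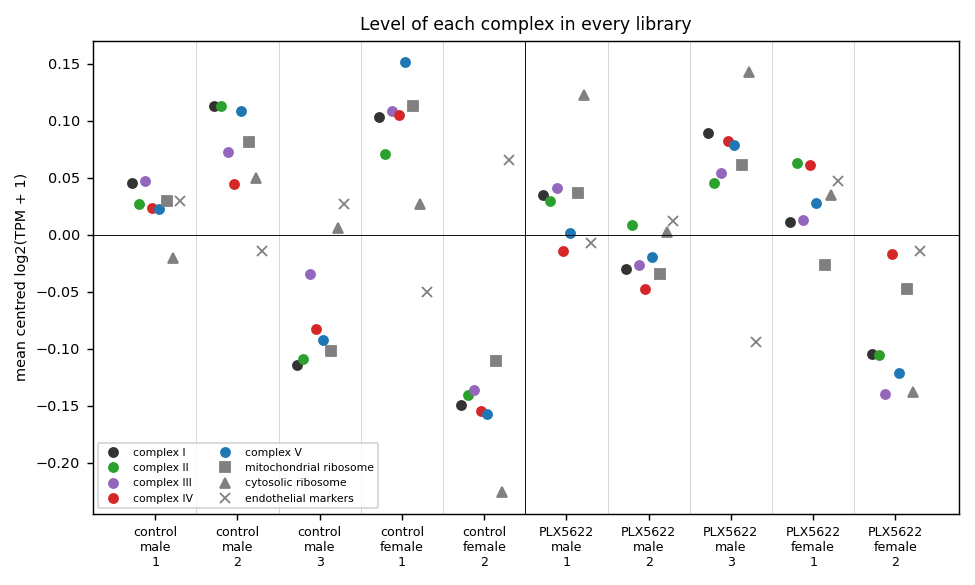
Mean level of each complex in every library, as log2(TPM + 1) relative to each gene's average over 10 libraries, with 78 mitochondrial ribosomal proteins, 82 cytosolic ribosomal proteins and 10 endothelial markers in grey. Points are values of a library and have no order within a group. In control female 2 the complexes lie between -0.16 and -0.14, in the library labelled control female 1 between 0.071 (complex II) and 0.15 (complex V), and in control male 2 between 0.045 (complex IV) and 0.11 (complexes I and II).

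The direction of the diet values depended on which library was left out and on the scaling, while the calls among members did not. The library labelled control female 1 and control female 2 sat at opposite ends of 1 small group. Without the library labelled control female 1, 66 of 82 members lay above 0 with a median of 0.044, and 3 had an unadjusted p under 0.05. These were Ndufs1, which was lower on PLX5622, and Ndufa2 and Atp5e, which were higher. Without control female 2, 59 lay below 0 with a median of -0.037. Other libraries had a similar weight. Without control male 3, 59 lay below 0 with a median of -0.0345. Without PLX5622 female 2, 56 lay above 0 with a median of 0.026. With both libraries numbered female 2 left out, 45 lay below 0 and the median was -0.012. In each of these fits 0 members were called by limma.

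Sex was tested in the same fit. Of the 82 members 0 were called, against 0.0627% of all genes, and 1 (Ndufb4) had an unadjusted p under 0.05, against 5.8%. The log2 difference, female minus male, was below 0 for 70 members, where it was for 45.6% of all genes, with a median of -0.054 beside 0.012. This lean also followed control female 2. Without it 42 members lay below 0 and the median was -0.0032, and without both libraries numbered female 2 only 18 did, with a median of 0.046. Without the library labelled control female 1, 76 lay below 0 and the median was -0.11. The exceptions above 0 in all libraries together included Cox7a1 (0.23 ± 0.125, SE), Atp5g1 (0.18) and Cox4i2 (0.17), none of which was called.

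Whether the diet difference depended on sex was asked with an interaction term. Among members 0 were called, as for all genes (0.0%), and 1 had an unadjusted p under 0.05, where 2.45% of all genes did. That member was Ndufb4, an accessory subunit of complex I, singled out after its values were seen. It measured 37.2, 37.3 and 38.5 TPM in control males and 37.4 and 38.0 TPM in control females. In PLX5622 males it measured 46.4, 47.7 and 43.6 TPM, and in PLX5622 females 35.6 and 31.5 TPM. All PLX5622 males lay above the controls and both PLX5622 females below them. The interaction was -0.44 ± 0.12 (SE) on the log2 scale with a limma adjusted p of 0.999. Fitted within a sex, the log2 difference between diets was 0.28 ± 0.079 (SE) in males (limma adjusted p = 0.647) and -0.17 ± 0.12 (SE) in females (limma adjusted p = 1.0). The related symbol Ndufb4c, just outside the threshold, never exceeded 1.10 TPM, and the sharing of reads between such copies was not tested.

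Genes that build, feed or regulate the complexes were listed by hand and read off the same fit. Of 45 assembly factors past the filter 0 were called, with 21 above 0, 24 below and a median log2 difference of -0.016. Uqcc3, a complex III assembly factor singled out after its values were seen, measured 39.1 to 45.5 TPM on control diet and 48.3 to 51.2 TPM on PLX5622 without overlap. Its log2 difference was 0.27 ± 0.059 (SE) with a limma adjusted p of 0.219, the lowest of the list. Sdhaf3, a complex II assembly factor, had the most negative value of the list at -0.38 ± 0.12 (SE, limma adjusted p = 0.402).

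Of 16 genes of the citric acid cycle and pyruvate dehydrogenase 0 were called, with a median of -0.018. Of 11 electron carriers and exchangers 0 were called, with a median of -0.053. Among them Slc25a5, an ADP/ATP exchanger at 615.8 TPM, had a value of 0.015 ± 0.061 (SE), and Ucp2, at 456.7 TPM, of 0.094 ± 0.117 (SE). Vdac1, an outer membrane channel singled out after its values were seen, had the most negative value of the list. It was -0.16 ± 0.056 (SE, limma adjusted p = 0.437). Of 14 biogenesis regulators 12 passed the filter and 0 were called, with a median of 0.041. Nrf1 averaged 19.6 TPM, Gabpa 46.0 TPM and Yy1 95.1 TPM, with log2 differences of 0.04, -0.025 and 0.044. The coactivators Ppargc1a and Ppargc1b, known as drivers of mitochondrial biogenesis in muscle and brown fat, averaged 0.839 and 0.385 TPM and did not pass the filter.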

How the data were processed

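The data are 10 polyadenylated RNA libraries of sorted brain endothelial cells, from a non-stranded kit, per the labels. The submitters' processing notes name STAR 2.7.10a, featureCounts of Subread 2.0.1, build mm39, DESeq2 1.32.0 and R 4.1.0, without a model formula. The authors deposited TPM for 26264 genes per library, and a table of 19474 genes with log2 fold changes, p-values, a test statistic and a mean count, the last 2 treated as scores in the deposited table. All columns of samples were used (0 unused). Titles gave diet, sex and biological replicate.

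Differences were tested with limma 3.58.1 (R 4.3.3) on log2(TPM + 1), with sex and diet as terms and a variance trend, over genes that reached a TPM of 1 in 5 or more libraries. Two-sided p-values were adjusted by Benjamini-Hochberg over all 12751 genes and called under 0.05. This scale understates fold changes of low genes. Whole reads were recovered from TPM and the authors' mean counts (100.0% whole within 0.05 reads), for depth and for a voom alternative. The fit was tested on simulated data. Figures and summaries used Python 3.11.15, pandas 2.3.3 and matplotlib 3.10.9.

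The members, gene lists and tests were chosen with earlier results of these data known. Members described singly were the most abundant 2 of each complex, the 2 with the smallest diet p, the extremes of fold change, all of complex II, the isoform pairs and the lowest 3, 25 in all. Further members (the core, stalk and rotor subunits and Ndufb4) were named after their values were seen, and the values of 1 member are not reported here. Alternatives changed the pseudocount, filter, scaling, variance model, weights, sex term and replicate block, split by sex, used recovered reads, or left out libraries. Leaving out both female 2 libraries, and counting overlap without the library labelled control female 1, were added after seeing the data. A rescaling on mitochondrial transcripts was not run, since 0 symbols of that kind matched.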

Additional observations from a re-analysis of the deposited data

Results flagged for a closer look

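In 5 of 68 groups of 5 libraries checked, 1 library stood far from the other 4 by Dixon's criterion (critical value 0.71), which chance gives in about 1 in 20 groups. Atp5a1, the alpha subunit of the ATP synthase head, was at 397.2 TPM in PLX5622 female 2, against 425.0 to 435.6 TPM in the other PLX5622 libraries. The summed TPM of complex II was also low in PLX5622 female 2, at 466.5 against 505.4 to 518.9. PLX5622 male 3 was high for Uqcrb, a complex III subunit, at 353.7 TPM against 254.3 to 281.9, and for Atp5mpl, a small complex V subunit, at 72.96 TPM against 60.92 to 62.54. Cox7a1, the muscle isoform of complex IV, was high in the library labelled control female 1, at 18.71 TPM against 12.31 to 13.71 in the other controls.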

How the results depend on the processing

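The count of 0 members called, for diet, sex and interaction, held in all 24 alternative settings in which each contrast could be fitted. The count of called genes over the whole table, 17, moved to 7 with no filter, 7 with no trend in the variance, 8 in males only and 0 in females only (limma, where 502 had an unadjusted p under 0.05), and to 5 to 16 when single libraries were left out. It was 11 with the replicate block. Same-numbered libraries were not treated as pairs in the main fit. Their deviations from the mean of their diet and sex correlated positively, at 0.121, 0.0309 and 0.19 for males 1 to 3 and 0.157 for females. In this measure 8 of 10 libraries correlated best with their own number. With 2 females per diet, the deviations of females 1 and 2 mirror each other. The females therefore give a single correlation, and their matches are a single outcome.

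The count of members whose diets did not overlap, 0, became 1 without the library labelled control female 1. The median member difference stayed between -0.037 and 0.044 when single libraries were left out. Of 599 alternative values of the 25 members described singly, 39, in 8 members, changed sign, and the lowest limma adjusted p was 0.283. Sdhd became 0.0119 with quantile normalization, 0.0126 with median-of-ratios scaling, 0.0034 in males only and 0.0093 with voom on recovered reads. Cox7a2 became 0.0093 with median-of-ratios scaling and 0.0089 with voom. Ndufb11 became -0.0026 with library weights. In males only Cox6b1 became -0.0038 and Sdhc -0.0229, and in females only Cox4i2 became 0.1098 and Sdha -0.039. With both female 2 libraries left out, Cox6b1 became -0.0256, Ndufb11 -0.0204 and Sdhc -0.014. Leaving out single libraries moved Cox4i1 between -0.0208 and 0.0607, Cox4i2 between -0.1635 and 0.0366, Cox6b1 between -0.0348 and 0.0652, Cox7a2 between -0.065 and 0.0439, Ndufb11 between -0.037 and 0.0507, Sdha between -0.0327 and 0.0385, Sdhc between -0.0427 and 0.0669, and Sdhd between -0.0553 and 0.0391. The cause of these changes was not tested. The median of all genes, -0.0156, became -0.0034 with quantile normalization and 0.002 with median-of-ratios scaling. Members above 0 then rose from 39 to 47 and 49, with 35 and 33 below. In the table that the authors deposited, 50 members were higher on PLX5622 and 32 lower. Depth limits mainly Cox6b2, with as few as 7 reads in a library.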

Other observations

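Glycolysis, the other main source of ATP, was read off the same fit. Of 18 listed genes 16 passed the filter and 0 were called for diet, with 12 above 0, 4 at an unadjusted p under 0.05 and a median log2 difference of 0.089. Over all genes tested 44.3% lay above 0, 8.31% had an unadjusted p under 0.05 and the median was -0.016. Without the library labelled control female 1, 2 of the 16 had an unadjusted p under 0.05 and the median was 0.073, and without control female 2 these values were 2 and 0.084. Pkm, which makes pyruvate in the last step, measured 443.6 to 469.9 TPM on control diet and 488.7 to 530.5 TPM on PLX5622 without overlap, with a log2 difference of 0.14 ± 0.047 (SE, limma adjusted p = 0.417). Aldoa and Tpi1, of the upper pathway, had values of 0.12 ± 0.051 and 0.12 ± 0.049 (SE), with limma adjusted p of 0.544 and 0.527. These 3 genes were named after their values were seen.

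Of 82 cytosolic ribosomal protein genes 72 lay above 0, 87.8% against 44.3% of all genes, with a median log2 difference of 0.067. The list was lowest in control female 2, and without that library 61 lay above 0 with a median of 0.028, while without the library labelled control female 1 79 did with a median of 0.11. Of 78 mitochondrial ribosomal protein genes 35 lay above 0 with a median of -0.01. In limma 0 genes of either list were called, with 7 and 3 at an unadjusted p under 0.05. Without the library labelled control female 1, these counts were 18 (22%) and 3, against 8.31% of all genes. Without control female 2 they were 1 and 5, against 7.85% of all genes. In both of these fits 0 genes of either list were called. Of 6 mitochondrial antioxidant genes 0 were called, with a median of -0.009, and Gpx4, a lipid peroxide reductase, was the most abundant at 329.8 TPM. In the erythrocyte list the globin genes were listed at 0 in all libraries, while Alas2 averaged 65.3 TPM.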
